A study of Homo sapiens with 32 samples.

Results

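ATF4 is a transcription factor whose protein is made when the initiation factor eIF2 is phosphorylated under amino acid shortage, unfolded protein or other stress, and it then drives genes that make, import and activate amino acids. The genes described here are ATF4 and 39 further genes of that programme, chosen by symbol as members of the pathway, with no measured value in the rule, although earlier results of these data were known when the list was drawn up. They are 40 of the 25498 genes in the deposited tables, and all 40 were present under the given symbols and passed the filter on low counts. By role they were 10 regulators and stress response genes, 10 genes of amino acid synthesis and one-carbon metabolism, 7 amino acid transporters, and 12 tRNA synthetases with the tRNA export factor XPOT.

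Messenger RNA of LNCaP, a human prostate cancer cell line, was sequenced in 32 libraries. The 8 groups were cells left in their growth medium, which holds fetal bovine serum (FBS), cells moved for 1 day to medium with charcoal-stripped serum (CSS), which is depleted of steroid hormones, and cells in CSS that were then given 100 ng/mL of EGF, a ligand of the receptor EGFR, or of NRG-1, a ligand of the receptors HER3 and HER4, for 5 min, 1 h or 4 h. Each group had 4 libraries, the labels' biological replicates 1 and 2 in each of batches 1 and 2. A single line was used, and the labels name no vehicle and no control taken at each time, so all 6 ligand groups were read against the same 4 CSS libraries and comparisons that share them are not independent. The labels and the study's methods give stripped serum for CSS, while a legend of the study speaks of serum starvation, and the labels were followed here. Whether the FBS cells also had their medium changed on the day before harvest was not stated, and serum and medium change cannot be told apart. Values per library are given in the order batch 1 replicate 1, batch 1 replicate 2, batch 2 replicate 1, batch 2 replicate 2.

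When amino acids run short, the kinase GCN2 phosphorylates eIF2, overall protein synthesis slows, and ATF4 mRNA is translated in preference. ATF4 binds with C/EBP partners to a composite C/EBP-ATF element in its target genes. In growing tumour cells the same genes are also used under mTORC1 signalling to supply serine, one-carbon units and charged tRNA. Only mRNA was measured here, so the amount of ATF4 protein was not known.

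The composite element was searched as TGATGNAA on either strand in the 250 bases before each gene start in the RefSeq promoter table (GRCh38.p14, a build other than the hg19 listed for the deposited files). Of the 40 genes, 34 were matched, 10 of them under a symbol with a trailing 1, and PSPH, SHMT2, ALDH1L2, SLC7A11, YARS and LARS were not matched. The element was found in 7 of the 34, or 20.6%, against 3.89% of 27305 genes in the table, and the holders were CEBPG, CHAC1, ASNS, SLC1A5, AARS, GARS and IARS. A gene was counted if any of its starts held the element, and genes differ in their number of starts. Counted by start, 7 of 55 starts of the 34 genes held it, against 3.14% of 35116 starts in the table. The 4 stretches below belong to holders whose values are given per library further on, 1 regulator, 1 transporter and 2 synthetases, and are written 5′ to 3′ on the strand of the gene with the element in capitals. TTGCATCA is the element read on the opposite strand.
CHAC1: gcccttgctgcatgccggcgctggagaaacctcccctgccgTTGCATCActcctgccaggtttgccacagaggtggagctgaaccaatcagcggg
SLC1A5: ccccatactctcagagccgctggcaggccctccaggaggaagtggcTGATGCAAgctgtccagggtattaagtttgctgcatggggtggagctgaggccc
AARS: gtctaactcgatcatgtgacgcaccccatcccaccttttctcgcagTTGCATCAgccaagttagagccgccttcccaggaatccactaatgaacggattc
IARS: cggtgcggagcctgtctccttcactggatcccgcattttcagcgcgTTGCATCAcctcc
The CHAC1 stretch is chr15:40953221-40953315 on the plus strand, and its element begins 209 bases before the gene start. The SLC1A5 stretch is chr19:46784858-46784957 on the minus strand, with the element 97 bases before the start. The AARS stretch is chr16:70289640-70289739 on the minus strand, with the element 187 bases before the start. The IARS stretch is chr9:92293698-92293756 on the minus strand, with the element 13 bases before the start. A match describes letters in a window, and binding was not measured.

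The luminal prostate markers KLK3, TMPRSS2, HOXB13, FOLH1, KRT8 and KRT18 were present in every group, and the lowest group mean among them was 41.2 TPM (transcripts per 1000000 transcripts, a level per length), for TMPRSS2 with NRG-1 at 1 h. Of the markers of other cell types, COL1A1 reached 3.71 TPM and KRT14 1.56 TPM in their highest group, while KRT5, TP63, COL1A2, PTPRC, PECAM1 and CHGA had at most 12 counts in any library. Library totals ran from 63822654 to 92401724 counts. The 2 batches differed in 31 of the 40 genes (77.5%) and in 55.6% of all genes tested, with log2 differences of -0.16 to 0.58 among the 40. Batch was a term in the main fit, as in the study's own model.

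ATF4 was the most abundant of the 40 in CSS, at 757 ± 42.5 TPM (SD, n = 4), and ranked 159 of 19287 genes with a level above 0. Next came the serine synthesis enzymes PSAT1, at 544 ± 8.75 TPM, and PHGDH, at 536 ± 38.6 TPM. In all, 24 of the 40 lay above 100 TPM and 4 below 10 TPM. Among the transporters, SLC3A2, the shared heavy chain of the heteromeric exchangers, stood at 134 ± 9.95 TPM, and its light chains SLC7A5, which carries leucine, and SLC7A11, which carries cystine, stood at 7.79 ± 1.41 TPM and 42.6 ± 6.69 TPM. The lowest was the mitochondrial folate enzyme ALDH1L2, at 0.22 ± 0.036 TPM. Of the 39 pairs of neighbours in this order, 31 had overlapping ranges over the 4 libraries, so that most of the order between neighbours was within their spread.

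**Figure D1:**
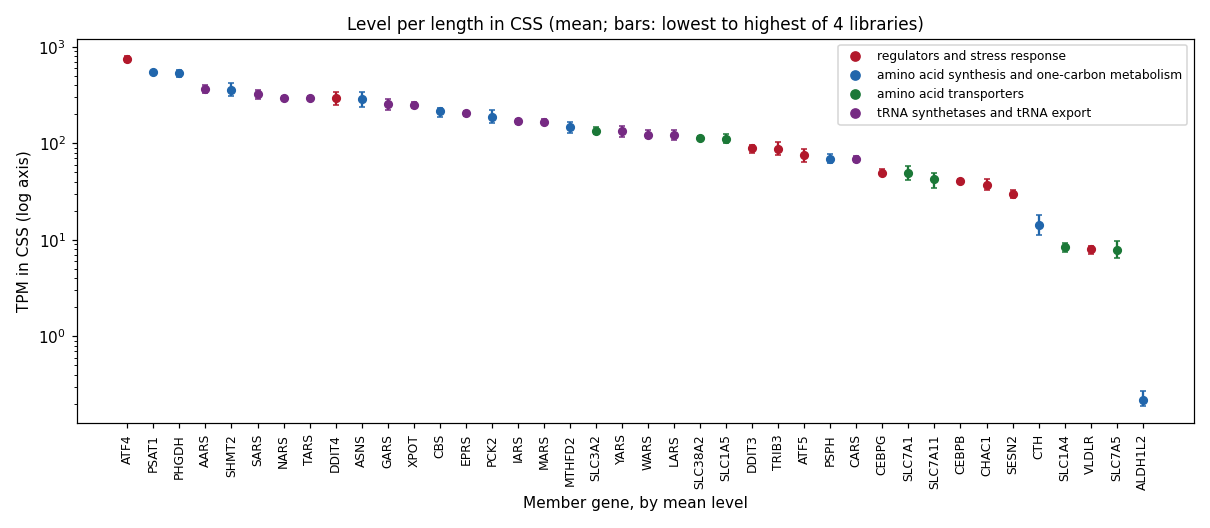
Level per length of the 40 genes in CSS (TPM, log axis), ordered by mean, with bars from the lowest to the highest of 4 libraries and colours for the 4 roles. ATF4 leads at 757 TPM and ALDH1L2 is last at 0.22 TPM.

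The first comparison was FBS against CSS, which asks what full serum did to these genes relative to stripped serum. With edgeR's quasi-likelihood test and Benjamini-Hochberg adjustment over 16995 genes (called at adjusted p below 0.05), 20 of the 40 were higher and 4 lower in FBS, 60% in all, while 52.7% of all genes tested were called (26.0% higher and 26.8% lower). Past a log2 fold change of 1 there were 0 of the 40 and 8.71% of all genes. All FBS libraries lay above all CSS libraries for 8 of the 40 and below them for 3. Over all 16995 genes tested these counts were 3005 and 3162. The median log2 fold change of the 40 was 0.14, and that of all genes was -0.01. The split by direction depended on the scale: in limma on log2(TPM + 1) the median of all genes moved to -0.17, that of the 40 to -0.06, and 5 were called higher and 10 lower of the 39 that passed the TPM filter, while the share of calls that were higher went from 49.2% to 29.5% over all genes.

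The synthesis genes had the most one-sided counts, with 7 of 10 higher and 0 lower in FBS (median 0.24, against 26.0% of all genes called higher). MTHFD2, the mitochondrial one-carbon enzyme, had 235, 274, 299 and 329 CPM (counts per 1000000 counts of the scaled library) in FBS and 150, 153, 195 and 204 CPM in CSS. Every FBS library lay above every CSS library, and the log2 fold change was 0.70 ± 0.074 (SE, adjusted p = 4.72e-09 in edgeR), with 0.75 in batch 1 and 0.66 in batch 2. ASNS, asparagine synthetase, rose by 0.55 ± 0.11, and PSPH and PSAT1 of serine synthesis rose by 0.60 ± 0.14 and 0.32 ± 0.098 on the log2 scale. PCK2, PHGDH and SHMT2 rose by 0.26, 0.19 and 0.17. CTH and CBS of cysteine synthesis were at 0.22 and -0.13 and ALDH1L2 at -0.19, none of them called. In TPM, MTHFD2, PSPH, ASNS and PSAT1 were still called higher, at 0.50, 0.40, 0.36 and 0.13, whereas PCK2, PHGDH and SHMT2 lay at 0.06, -0.01 and -0.03.

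Transporters moved in both directions with serum. SLC1A5, the glutamine carrier, had 186, 173, 203 and 196 CPM in FBS and 120, 121, 151 and 144 CPM in CSS. The groups did not overlap, and the log2 fold change was 0.51 ± 0.046 (adjusted p = 2.84e-10, edgeR), with 0.58 and 0.44 in the batches and 0.32 on the TPM scale. SLC7A5 had 13.6, 13.4, 15.5 and 12.4 CPM in FBS and 16.7, 16.8, 24.7 and 22.2 CPM in CSS. All FBS libraries were the lower ones, with a log2 fold change of -0.51 ± 0.15 (adjusted p = 0.0044, edgeR), -0.31 and -0.74 in the batches and -0.62 on the TPM scale. Its transcribed pseudogenes SLC7A5P1 and SLC7A5P2 were counted at no more than 0.733 and 1.61 CPM in any library, and reads of the copies could have been split between them. The neutral amino acid carrier SLC1A4 was 0.48 ± 0.082 higher and SLC3A2 0.12 ± 0.047 higher in edgeR. SLC7A11, SLC7A1 and SLC38A2 lay between 0.00 and 0.02 and were not called. In limma on TPM, SLC1A4 was at 0.25 and SLC3A2 at -0.10, neither called.

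Among the regulators 4 were higher and 2 lower in FBS, 60% in all against 52.7% of all genes. SESN2, a leucine-binding inhibitor of mTORC1, had 46.1, 47.5, 43.3 and 35.4 CPM in FBS and 57.5, 58.0, 64.4 and 57.7 CPM in CSS. The groups were apart, and the log2 fold change was -0.46 ± 0.12 (adjusted p = 0.0018, edgeR), with -0.30 and -0.63 in the batches. CEBPB, a C/EBP partner of ATF4, had 53.4, 57.8, 50.5 and 56.8 CPM in FBS against 44.6, 43.4, 47.1 and 49.9 CPM in CSS. Its log2 fold change was 0.24 ± 0.074 (adjusted p = 0.0065, edgeR), with 0.34 and 0.15 in the batches. ATF4 itself had 540, 602, 588 and 728 CPM in FBS and 501, 518, 570 and 598 CPM in CSS, groups that overlapped, with a log2 fold change of 0.17 ± 0.067 (adjusted p = 0.037, edgeR). CEBPG, the other C/EBP partner, and the pseudokinase TRIB3 were at 0.18 and 0.19, and the related factor ATF5 at -0.18, each called. The other regulators, VLDLR, DDIT4, CHAC1 and DDIT3, were at 0.02, 0.09, 0.20 and -0.17 and were not called. When TPM was used, ATF4, CEBPB, CEBPG and TRIB3 lay between -0.04 and 0.04 and none was called, and DDIT3 was called lower at -0.40.

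Of the 13 tRNA genes, 6 were higher and 1 lower, 53.8% in all and close to the 52.7% of all genes called. IARS, the isoleucyl-tRNA synthetase, had 503, 516, 545 and 503 CPM in FBS and 411, 414, 461 and 477 CPM in CSS, a log2 fold change of 0.23 ± 0.061 (adjusted p = 0.0021, edgeR) with 0.31 and 0.16 in the batches. AARS, the alanyl-tRNA synthetase, went the other way, with 636, 593, 579 and 563 CPM in FBS and 649, 710, 704 and 675 CPM in CSS. No FBS library of AARS reached a CSS library, and the log2 fold change was -0.21 ± 0.050 (adjusted p = 0.00086, edgeR), with -0.14 and -0.27 in the batches. SARS, XPOT, CARS, MARS and YARS were also called higher, by 0.14 to 0.22. The 6 that were not called, GARS, LARS, TARS, WARS, NARS and EPRS, lay between -0.09 and 0.12. In TPM, IARS lay at 0.04, those 5 between -0.06 and 0.00, and AARS at -0.40.

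**Figure D2:**
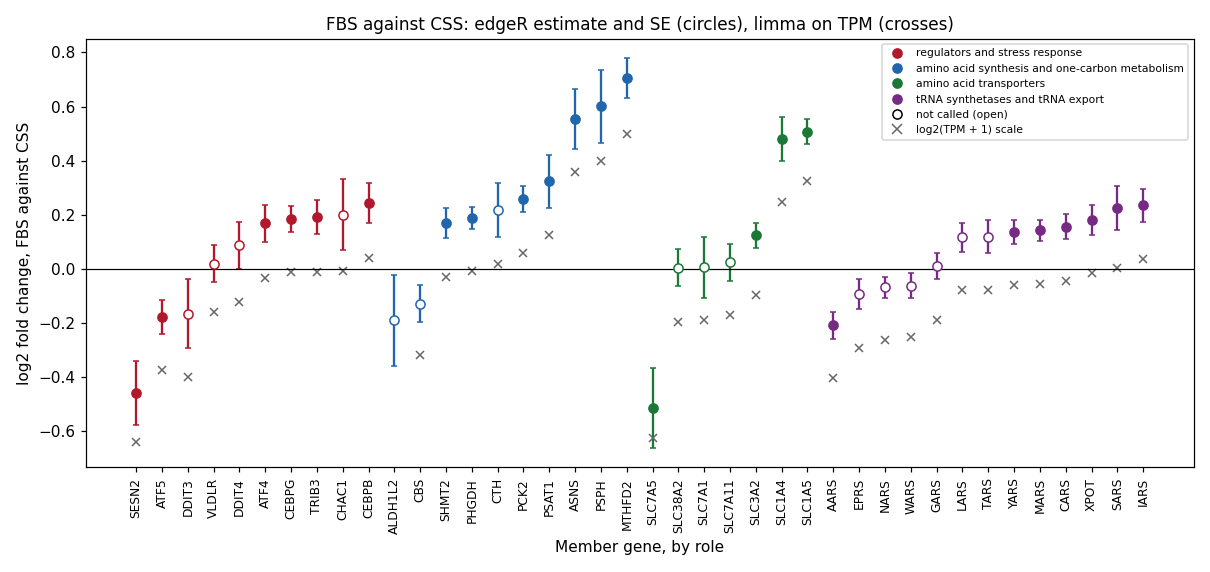
Log2 fold change of each gene in FBS against CSS, by role: circles are edgeR estimates with their SE, filled where adjusted p is below 0.05, and crosses are limma estimates on log2(TPM + 1). MTHFD2, at 0.70, is the highest and SLC7A5, at -0.51, the lowest circle, and the crosses lie below their circles. ALDH1L2 did not pass the TPM filter and has no cross.

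The remaining comparisons follow the ligands over time. At 5 min 0 of the 40 were called with EGF (0.00588% of all genes, which is 1 gene) and 0 with NRG-1 (0% of all genes) in edgeR. At an unadjusted p below 0.05 there were 0 of the 40 with EGF and 1 with NRG-1, and DESeq2 and limma also called 0. The log2 fold changes of the 40 lay between -0.06 and 0.10 with EGF and between -0.10 and 0.08 with NRG-1.

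At 1 h 12 of the 40 were higher and 0 lower with EGF, 30% in all, while 9.51% of all genes tested were called (6.00% higher and 3.51% lower). With NRG-1 8 were higher and 1 lower, 22.5%, while 6.73% of all genes were called (4.45% higher and 2.28% lower). Past a log2 fold change of 1 there were 1 of the 40 with EGF and 0 with NRG-1, and 1.72% and 0.989% of all genes. The regulators held most of them, with 8 of 10 higher and 0 lower for EGF (median 0.37) and 5 higher and 1 lower for NRG-1 (median 0.25). Of the transporters 3 of 7 were higher with each ligand. Of the 13 tRNA genes 1 was higher with EGF and 0 with NRG-1, and of the 10 synthesis genes 0 with either ligand. SLC7A11 (0.10 with EGF, -0.03 with NRG-1) and SLC7A1 (0.27 with EGF, 0.03 with NRG-1) were not called at 1 h. The synthesis genes lay between -0.10 and 0.19 with EGF and between -0.15 and 0.22 with NRG-1. At an unadjusted p below 0.05, 0 synthesis genes passed with either ligand, 2 tRNA genes passed with EGF and 0 with NRG-1. The glycyl-tRNA synthetase GARS was the tRNA gene that rose, by 0.16 ± 0.047 on the log2 scale with EGF (adjusted p = 0.031, edgeR). All 1 h libraries lay above all CSS libraries for 8 of the 40 with EGF and 5 with NRG-1, and below for 1 with each. Over all 16995 genes tested these counts were 1268 and 846 above, and 1006 and 648 below.

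At 4 h the counts were close to the background. With EGF 10 were higher and 11 lower, 52.5% in all, while 49.2% of all genes were called (24.6% higher and 24.6% lower). With NRG-1 6 were higher and 11 lower, 42.5%, while 42.6% of all genes were called (21.6% higher and 21.0% lower). Past a log2 fold change of 1 there were 0 of the 40 with EGF and 1 with NRG-1, and 9.56% and 7.41% of all genes. The roles differed in their split, with regulators at 1 higher and 5 lower and synthesis genes at 0 higher and 4 lower for each ligand, transporters at 4 higher and 1 lower for EGF and 2 and 1 for NRG-1, and tRNA genes at 5 and 1 for EGF and 3 and 1 for NRG-1. In limma on log2(TPM + 1) the counts of the 40 were 4 higher and 13 lower for EGF and 1 and 15 for NRG-1, and the share of all calls that were higher went from 50.0% to 39.2% and from 50.7% to 35.7%. All 4 h libraries lay above all CSS libraries for 5 of the 40 with EGF and 2 with NRG-1, and below for 9 and 8. Over all 16995 genes tested these counts were 3662 and 2723 above, and 3348 and 2503 below.

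**Figure D3:**
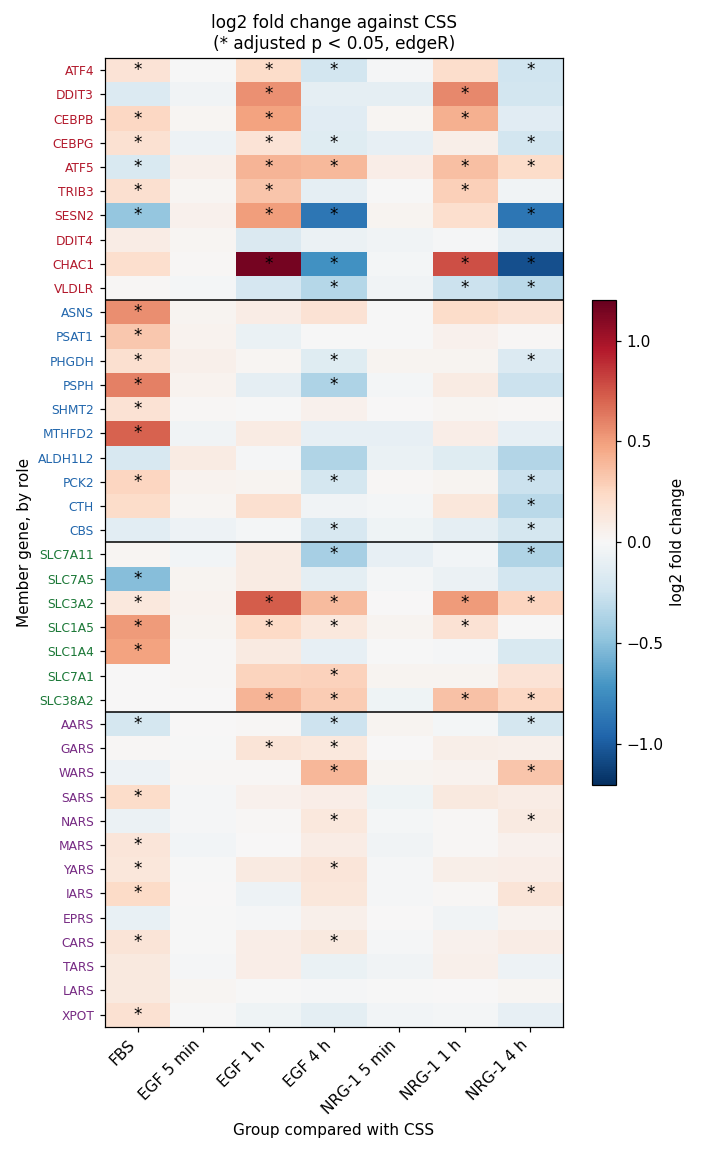
Log2 fold change against CSS (colour) for the 40 genes (vertical axis, by role) in the 7 other groups (horizontal axis), with a star where adjusted p is below 0.05. The 5 min columns are near 0, 8 of the 10 regulators are red at 1 h with each ligand, all 8 with a star for EGF, while VLDLR and DDIT4 are not, and CHAC1 and SESN2 turn to the darkest blue at 4 h.

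ATF4 had 638, 587, 653 and 669 CPM after 1 h of EGF, 564, 616, 638 and 714 CPM after 1 h of NRG-1, and 501, 518, 570 and 598 CPM in CSS. Within each batch all 1 h libraries were above the CSS libraries, although the groups overlapped over both batches. The log2 fold change was 0.22 ± 0.067 for EGF (adjusted p = 0.030, edgeR) and 0.21 ± 0.067 for NRG-1 (adjusted p = 0.058, not called). With the replicate number as a block the NRG-1 value was 0.21 with adjusted p = 0.0049. The call for EGF was lost without any 1 of 5 libraries, CSS batch 1 replicate 1 (adjusted p = 0.074), CSS batch 2 replicate 1 (0.093), CSS batch 2 replicate 2 (0.059), EGF batch 1 replicate 1 (0.15) or EGF batch 1 replicate 2 (0.061).

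At 4 h ATF4 was below CSS with both ligands. It had 425, 440, 486 and 524 CPM with EGF and 395, 413, 506 and 549 CPM with NRG-1. In each batch the 4 h libraries lay below the CSS libraries, with log2 fold changes of -0.22 ± 0.067 (adjusted p = 0.0068) and -0.24 ± 0.067 (adjusted p = 0.0047) in edgeR. From 1 h to 4 h it fell by 0.45 with EGF and 0.45 with NRG-1 on the log2 scale.

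DDIT3, which encodes the stress factor CHOP, had 34.3, 33.3, 41.6 and 44.9 CPM in CSS, 59.5, 53.6, 56.5 and 53.7 CPM after 1 h of EGF, and 53.2, 53.4, 56.8 and 64.7 CPM after 1 h of NRG-1. Every 1 h library was above every CSS library. It rose by 0.55 ± 0.13 with EGF (adjusted p = 0.0030) and 0.57 ± 0.13 with NRG-1 (adjusted p = 0.0030, edgeR), with 0.75 and 0.35 in the batches for EGF and 0.66 and 0.49 for NRG-1. At 4 h DDIT3 had 30.9, 32.7, 37.9 and 41.5 CPM with EGF and 24.9, 26.3, 36.8 and 45.8 CPM with NRG-1, ranges that overlapped CSS. Neither was called, at -0.11 ± 0.13 (adjusted p = 0.52) and -0.22 ± 0.13 (adjusted p = 0.17, edgeR). The NRG-1 value was called without NRG-1 batch 2 replicate 2 (adjusted p = 0.023). From 1 h to 4 h DDIT3 fell by 0.66 with EGF and 0.79 with NRG-1.

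CHAC1, an enzyme that degrades glutathione, had the highest log2 fold change of the 40 at 1 h with each ligand. It had 26.5, 26.3, 33.5 and 32.2 CPM in CSS and 71.5, 65.8, 62.2 and 60.2 CPM after 1 h of EGF, with 51.2, 49.6, 52.3 and 48.0 CPM after 1 h of NRG-1. Neither 1 h group overlapped CSS. It was 2.22-fold higher with EGF (log2 1.15 ± 0.13, adjusted p = 1.29e-07, edgeR) and rose by 0.77 ± 0.13 on the log2 scale with NRG-1 (adjusted p = 0.00013), with 1.39 and 0.90 in the batches for EGF and 0.94 and 0.61 for NRG-1. At 4 h it had 14.7, 15.9, 20.1 and 21.3 CPM with EGF and 10.3, 10.1, 18.1 and 19.4 CPM with NRG-1, all below the lowest CSS library. The log2 fold changes were -0.73 ± 0.13 for EGF (adjusted p = 4.05e-05) and -1.06 ± 0.13 for NRG-1 (adjusted p = 2.14e-07, edgeR), and within batches -0.79 and -0.65 for EGF and -1.38 and -0.80 for NRG-1. From 1 h to 4 h CHAC1 went down 3.67-fold with EGF (log2 -1.88 ± 0.14, adjusted p = 2.88e-12) and 3.56-fold with NRG-1 (log2 -1.83 ± 0.14, adjusted p = 7.34e-12, edgeR). Against FBS, where it had 30.9, 39.0, 32.8 and 32.0 CPM, NRG-1 at 4 h was lower by 2.39-fold (log2 -1.26 ± 0.14, adjusted p = 4.80e-09, edgeR).

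SESN2 followed the same order for EGF. It had 57.5, 58.0, 64.4 and 57.7 CPM in CSS, 87.5, 84.9, 86.6 and 76.6 CPM after 1 h of EGF and 72.5, 63.9, 76.5 and 60.3 CPM after 1 h of NRG-1. All EGF libraries exceeded CSS, and it rose by 0.50 ± 0.12 (adjusted p = 0.0040, edgeR), while the NRG-1 group overlapped CSS and was not called (0.20, adjusted p = 0.41). At 4 h SESN2 had 26.8, 27.4, 40.7 and 35.8 CPM with EGF and 29.6, 27.0, 41.0 and 33.1 CPM with NRG-1, in every case below CSS. Its log2 fold change at 4 h was -0.87 ± 0.12 with each ligand, with -1.10 and -0.65 in the batches for EGF and -1.03 and -0.71 for NRG-1. From 1 h to 4 h it went down 2.58-fold with EGF (log2 -1.37 ± 0.12, adjusted p = 1.68e-10) and 2.10-fold with NRG-1 (log2 -1.07 ± 0.12, adjusted p = 2.54e-08, edgeR).

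ATF5, a relative of ATF4 under similar translational control, stayed high. It had 71.2, 79.7, 96.6 and 87.9 CPM in CSS, 104, 103, 114 and 117 CPM after 4 h of EGF and 98.3, 93.7, 105 and 90.7 CPM after 4 h of NRG-1. The EGF group was above all CSS libraries and the NRG-1 group overlapped them. The log2 fold change was 0.39 ± 0.063 for EGF at 4 h (adjusted p = 7.66e-06) and 0.22 ± 0.063 for NRG-1 (adjusted p = 0.0063, edgeR), with 0.45 and 0.35 in the batches for EGF and 0.34 and 0.10 for NRG-1. It was the 1 regulator called higher at 4 h with either ligand. On the TPM scale the NRG-1 value was 0.11 and was not called (adjusted p = 0.40, limma).

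Of the other regulators, CEBPB rose by 0.48 ± 0.074 with EGF and 0.43 ± 0.073 with NRG-1 at 1 h, and TRIB3 by 0.33 ± 0.063 and 0.28 ± 0.063. CEBPG rose by 0.17 ± 0.047 with EGF at 1 h and was at 0.07 with NRG-1, and at 4 h it fell by 0.15 and 0.22. VLDLR, a lipoprotein receptor, was at -0.20 with EGF at 1 h, not called, and fell by 0.26 with NRG-1 at 1 h and by 0.34 with EGF and 0.32 with NRG-1 at 4 h. DDIT4, another inhibitor of mTORC1, was not called in any of these comparisons with CSS, its values lying between -0.17 and 0.09.

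**Figure D4:**
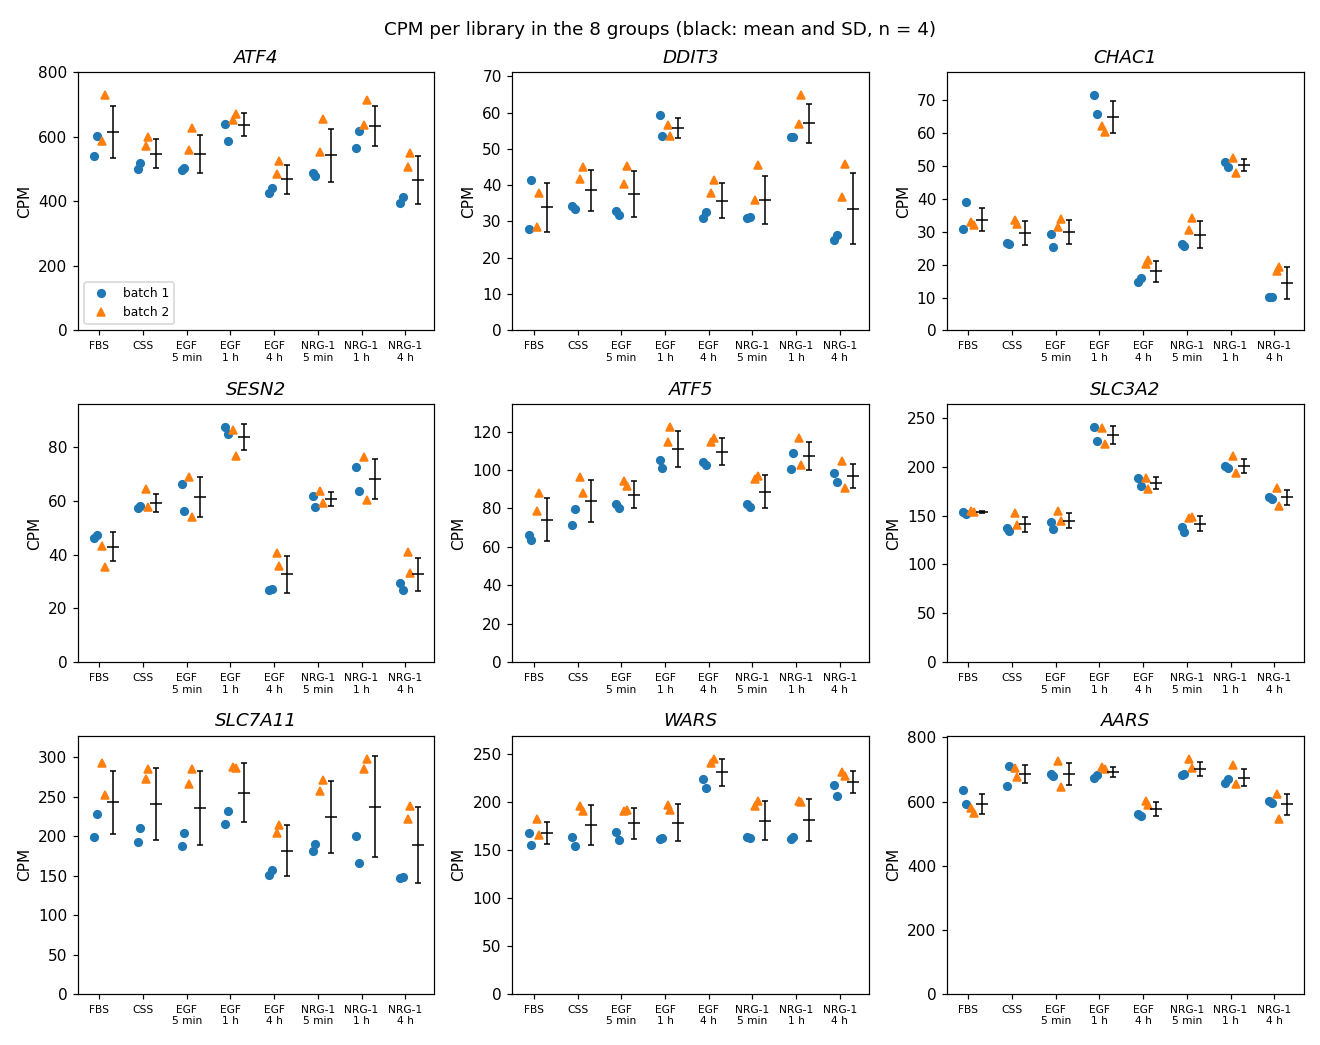
CPM in each library for 9 of the genes across the 8 groups, with circles for batch 1, triangles for batch 2 and black marks for mean and SD (n = 4). CHAC1 stands at 60.2 to 71.5 CPM after 1 h of EGF and at 10.1 to 19.4 CPM after 4 h of NRG-1, while AARS stays between 545 and 732 CPM in all groups.

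Synthesis genes were not called at 1 h, and at 4 h those called were lower. PCK2, the mitochondrial enzyme that makes phosphoenolpyruvate, had 206, 207, 280 and 275 CPM in CSS, 183, 175, 239 and 240 CPM after 4 h of EGF and 174, 175, 237 and 225 CPM after 4 h of NRG-1. Each 4 h library lay below both CSS libraries of its own batch. The log2 fold changes were -0.21 ± 0.048 (adjusted p = 0.00052) and -0.25 ± 0.048 (adjusted p = 6.89e-05, edgeR), with -0.21 and -0.19 in the batches for EGF and -0.25 and -0.25 for NRG-1. PHGDH fell by 0.15 with EGF and 0.17 with NRG-1, and CBS by 0.19 and 0.22. PSPH fell by 0.37 ± 0.14 with EGF and was at -0.26 with NRG-1, not called. CTH was at -0.05 with EGF, not called, and fell by 0.32 ± 0.10 with NRG-1. It had 12.9, 12.4, 20.5 and 20.6 CPM in CSS and 14.3, 15.0, 15.4 and 17.6 CPM after 4 h of EGF. Its EGF libraries thus lay above CSS in batch 1 and below CSS in batch 2. Neither gene was called in the direct comparison of the ligands at 4 h. ASNS was at 0.17 with each ligand, PSAT1 and SHMT2 lay between -0.01 and 0.05, MTHFD2 was at -0.10 with each ligand and ALDH1L2 at -0.36 and -0.35, with no call among them.

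The transporters SLC3A2 and SLC38A2 were called higher than CSS at 1 h and at 4 h with both ligands, as was ATF5 among the regulators. SLC3A2 had 137, 134, 152 and 140 CPM in CSS, 241, 226, 240 and 223 CPM after 1 h of EGF and 201, 199, 211 and 194 CPM after 1 h of NRG-1. Both groups were clear of CSS and of each other, with log2 fold changes of 0.72 ± 0.047 (adjusted p = 6.72e-13) and 0.51 ± 0.047 (adjusted p = 2.01e-09, edgeR). At 4 h SLC3A2 had 189, 180, 188 and 177 CPM with EGF and 169, 167, 178 and 160 CPM with NRG-1, still above every CSS library, at 0.38 ± 0.047 (adjusted p = 6.93e-08) and 0.26 ± 0.047 (adjusted p = 4.02e-05). Within batches the 4 h values were 0.44 and 0.34 for EGF and 0.31 and 0.22 for NRG-1. On the TPM scale the 4 h value for NRG-1 was 0.16 and was not called (adjusted p = 0.18, limma).

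SLC38A2, a carrier of small neutral amino acids, had 304, 290, 330 and 352 CPM in CSS, 353, 359, 426 and 445 CPM after 4 h of EGF and 328, 329, 404 and 467 CPM after 4 h of NRG-1. The EGF libraries exceeded all CSS libraries and the NRG-1 libraries exceeded those of their own batch. It rose by 0.31 ± 0.067 with EGF (adjusted p = 0.00035) and 0.25 ± 0.067 with NRG-1 (adjusted p = 0.0031, edgeR), with 0.26 and 0.38 in the batches for EGF and 0.14 and 0.37 for NRG-1, and at 1 h it had risen by 0.41 and 0.35. On the TPM scale the NRG-1 value at 4 h was 0.15 and was not called (adjusted p = 0.17, limma).

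SLC7A11, the cystine carrier, was the transporter called lower at 4 h. It had 193, 210, 272 and 286 CPM in CSS, 151, 158, 204 and 215 CPM with EGF and 147, 148, 221 and 238 CPM with NRG-1. In each batch the 4 h libraries were below CSS, although batch 2 stood above batch 1 in all 3 groups. The log2 fold changes were -0.40 ± 0.069 (adjusted p = 1.63e-05) and -0.36 ± 0.069 (adjusted p = 7.59e-05, edgeR), with -0.39 and -0.39 in the batches for EGF and -0.46 and -0.27 for NRG-1. SLC1A5 was 0.24 and 0.17 higher at 1 h with EGF and NRG-1, 0.12 higher at 4 h with EGF and at 0.00 with NRG-1 at 4 h, where it was not called. The cationic amino acid carrier SLC7A1 rose by 0.28 ± 0.11 with EGF at 4 h and was at 0.16 with NRG-1, not called. SLC7A5 and SLC1A4 were not called with either ligand at 1 h or 4 h, with values between -0.22 and 0.11. For SLC7A5 the batches differed at 4 h, with 13.5, 12.1, 26.9 and 23.6 CPM for EGF and 13.4, 12.0, 26.2 and 19.0 CPM for NRG-1. Against 16.7, 16.8, 24.7 and 22.2 CPM in CSS, these were lower in batch 1 and overlapped CSS in batch 2.

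The tRNA genes were led at 4 h by WARS, the tryptophanyl-tRNA synthetase. It had 164, 154, 197 and 191 CPM in CSS, 224, 216, 241 and 245 CPM with EGF and 218, 206, 232 and 228 CPM with NRG-1. Neither 4 h group overlapped CSS, and the log2 fold changes were 0.40 ± 0.046 (adjusted p = 3.07e-08) and 0.33 ± 0.046 (adjusted p = 1.05e-06, edgeR), with 0.46 and 0.35 in the batches for EGF and 0.41 and 0.26 for NRG-1. At 1 h WARS was at 0.02 and 0.04 and was not called.

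AARS was the tRNA gene called lower in edgeR at 4 h, with 562, 554, 602 and 589 CPM after 4 h of EGF and 600, 595, 624 and 545 CPM after 4 h of NRG-1, all below the lowest CSS library at 649 CPM. Its log2 fold changes were -0.25 ± 0.050 (adjusted p = 0.00012) and -0.21 ± 0.050 (adjusted p = 0.00092, edgeR), with -0.29 and -0.19 in the batches for EGF and -0.19 and -0.22 for NRG-1. NARS, the asparaginyl-tRNA synthetase, had 447, 454, 487 and 498 CPM in CSS, 500, 507, 515 and 531 CPM with EGF and 491, 499, 509 and 531 CPM with NRG-1. The EGF group lay just above CSS and the NRG-1 group overlapped it, with log2 fold changes of 0.12 ± 0.039 (adjusted p = 0.0085) and 0.11 ± 0.039 (adjusted p = 0.024, edgeR). The NRG-1 call for NARS was lost without any 1 of 5 libraries, CSS batch 1 replicate 1 (adjusted p = 0.066), CSS batch 2 replicate 1 (0.050275), NRG-1 batch 1 replicate 1 (0.050192), NRG-1 batch 1 replicate 2 (0.071) or NRG-1 batch 2 replicate 2 (0.060), and on the TPM scale neither NARS value was called (0.05 and 0.01).

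Of the remaining synthetases GARS, YARS and CARS rose by 0.13, 0.14 and 0.12 with EGF at 4 h, and IARS by 0.16 with NRG-1. IARS had 411, 414, 461 and 477 CPM in CSS, 466, 461, 484 and 527 CPM after 4 h of EGF, not called, and 455, 457, 493 and 562 CPM after 4 h of NRG-1. On the TPM scale none of these 4 rises was called, with values of 0.05 to 0.07. SARS, MARS, EPRS, TARS, LARS and XPOT were not called with either ligand at 1 h or 4 h in edgeR, and in limma on log2(TPM + 1) TARS and XPOT were called lower at 4 h with both ligands, by values of -0.15 to -0.20.

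Compared directly, 4 h against 1 h of the same ligand gave 3 of the 40 higher and 17 lower for EGF, with 44.0% of all genes called (22.5% higher and 21.5% lower), and 1 higher and 15 lower for NRG-1, with 37.5% of all genes called (19.0% higher and 18.5% lower). CHAC1 and SESN2 passed a log2 fold change of 1 with each ligand, as did 8.22% of all genes for EGF and 6.79% for NRG-1. In each ligand 7 of the 10 regulators were lower and 0 higher. The median log2 fold change of the 40 was -0.15 for EGF and -0.13 for NRG-1, and that of all genes was 0.00 and -0.01. Besides the genes given above, CEBPB fell by 0.62 with EGF and 0.56 with NRG-1, and TRIB3 by 0.44 and 0.32. The genes called higher at 4 h than at 1 h were WARS with both ligands (0.38 and 0.29) and IARS and NARS with EGF (0.20 and 0.11).

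The ligands were also compared with each other at each time. At 5 min 0 of the 40 differed in edgeR, at 1 h 1 of the 40, higher with EGF (1.06% of all genes called, 0.941% higher and 0.118% lower), and at 4 h 0 of the 40 (1.66% of all genes called, 1.25% higher and 0.412% lower). Past a log2 fold change of 1 there were 0 of the 40 and 0.171% of all genes at 1 h and again at 4 h. At an unadjusted p below 0.05 the counts were 0, 5 and 5, and DESeq2 called 0, 1 and 0. The gene at 1 h was SLC3A2, whose EGF libraries, 223 to 241 CPM, all lay above its NRG-1 libraries, 194 to 211 CPM. The log2 difference was 0.21 ± 0.047 (adjusted p = 0.014, edgeR), with 0.23 in batch 1 and 0.20 in batch 2, and the call was lost without EGF batch 1 replicate 1 (adjusted p = 0.094) or EGF batch 2 replicate 1 (0.059). CHAC1 at 1 h was 0.38 ± 0.13 higher with EGF than with NRG-1 and its libraries did not overlap, but it missed the threshold (adjusted p = 0.30, edgeR), as did SESN2 at 0.30 ± 0.12 (adjusted p = 0.45). With the replicate number as a block, 2 of the 40 were called at 1 h and 2 at 4 h, beside 478 and 810 of all 16995 genes. At 1 h all EGF libraries lay above all NRG-1 libraries for 4 of the 40 and below for 0. Over all genes tested these counts were 416 and 196.

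Set against FBS, 9 of the 40 were higher and 20 lower after 4 h of EGF, with 62.4% of all genes called (31.5% higher and 31.0% lower), and 6 higher and 20 lower after 4 h of NRG-1, with 57.2% of all genes called (29.4% higher and 27.8% lower). Past a log2 fold change of 1 there were 0 of the 40 with EGF and 1, CHAC1, with NRG-1, and 16.4% and 14.4% of all genes. The synthesis genes were at 0 higher and 7 lower of 10 with EGF (median -0.33) and 0 higher and 8 lower with NRG-1 (median -0.37). The transporters were at 4 higher and 3 lower and at 2 higher and 3 lower of 7. In limma on log2(TPM + 1) the median of all genes for EGF moved from -0.02 to 0.11 and the counts of the 40 were 8 higher and 14 lower.

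Genes next to the 40 in the same pathway were taken as 4 further lists. Of 12 other ATF4 target genes, 5 were higher and 0 lower at 1 h with EGF (41.7%, against 9.51% of all genes called) and 2 higher and 0 lower with NRG-1 (16.7%, against 6.73%). At 4 h 0 were higher and 8 lower with EGF (66.7%, against 49.2%) and 0 higher and 6 lower with NRG-1 (50%, against 42.6%), where 24.6% and 21.0% of all genes were lower. All 12 estimates were below 0 at 4 h with either ligand. JDP2, a repressor of the AP-1 family, had the largest fall at 4 h of EGF, from 19.8 ± 1.07 CPM in CSS to 9.44 ± 0.37 CPM (log2 -1.07 ± 0.057, adjusted p = 3.17e-15, edgeR). Named after their values were seen, ATF3, a stress-induced repressor, went from 55.0 ± 3.62 CPM in CSS to 674 ± 135 CPM after 1 h of EGF and 326 ± 42.1 CPM after 1 h of NRG-1, and the secreted factor GDF15 from 226 ± 18.2 CPM to 746 ± 20.4 and 557 ± 20.3 CPM. At 4 h of EGF they had 29.3 ± 4.36 CPM and 212 ± 16.2 CPM, and ATF3 was called lower than CSS.

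Of 14 genes for the eIF2 kinases, eIF2, eIF2B and the eIF2 phosphatase, 3 were higher and 0 lower at 1 h with EGF (21.4%, against 9.51% of all genes called) and 2 and 0 with NRG-1 (14.3%, against 6.73%). At 4 h 6 were higher and 1 lower with EGF (50%, against 49.2%) and 6 and 2 with NRG-1 (57.1%, against 42.6%). EIF2B2, a subunit of the exchange factor of eIF2, had the largest rise at 4 h of EGF (0.49 ± 0.056, adjusted p = 1.64e-08), and EIF2AK4, which encodes GCN2, was the gene that fell (-0.20 ± 0.067, adjusted p = 0.015, edgeR). PPP1R15A, the stress-induced subunit that directs the phosphatase to eIF2, was also named after its values were seen, at 5.81 ± 0.55 CPM in CSS, 13.7 ± 0.76 CPM after 1 h of EGF and 12.4 ± 0.42 CPM after 1 h of NRG-1.

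Of 11 other cytosolic tRNA synthetases and scaffold proteins, 0 were called at 1 h with either ligand, and at 4 h 7 were higher and 1 lower with EGF (72.7%, against 49.2% of all genes called and 24.6% higher) and 8 higher and 1 lower with NRG-1 (81.8%, against 42.6% called and 21.6% higher). FARSA, a phenylalanyl-tRNA synthetase subunit, had the largest rise with EGF (0.49 ± 0.060, adjusted p = 7.73e-08), and QARS, the glutaminyl-tRNA synthetase, was the one that fell (-0.15 ± 0.053, adjusted p = 0.018, edgeR). Of 17 mitochondrial synthetases, 4 were higher and 8 lower at 4 h of EGF (70.6%, against 49.2% of all genes called) and 3 higher and 5 lower with NRG-1 (47.1%, against 42.6%). With EGF MARS2 had the largest rise, 0.65 ± 0.072, and VARS2 the largest fall, -0.25 ± 0.067. Because these are bulk libraries, fewer cells of a kind and less RNA per cell cannot be told apart for any of the genes above.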

How the data were processed

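Polyadenylated RNA from 32 LNCaP libraries (8 groups of 4) was analysed. The authors trimmed reads with Trimmomatic 0.36 and quantified genes with RSEM and STAR 2.7.0f, with hg19 listed as the build and the annotation not given in the sources used here, and deposited expected counts per gene and TPM per gene. Of the deposited expected count values, 11.2% were not whole, and all were rounded. Library totals of 63822654 to 92401724 counts (median 77866194) leave counting error small beside the spread between libraries, since chi-square per degree of freedom between 2 libraries of a group was 6.50 to 262.

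The 16995 genes that reached 5 counts in 3 or more libraries were fitted in edgeR 4.0.16 (quasi-likelihood test, TMM, group plus batch, all 32 libraries in 1 fit, R 4.3.3), with Benjamini-Hochberg adjustment per comparison over all genes tested. CPM used TMM-scaled library sizes. A gene was called at adjusted p below 0.05, and as a differentially expressed gene also with a log2 fold change beyond 1. There were 14 comparisons. Alternatives used DESeq2 1.42.0, limma 3.58.1 on log2(TPM + 1), other filters, normalisation and designs, each batch alone, and each library left out. The edgeR script was tested on data simulated for CSS and EGF at 4 h only. The simulation held no difference between batches, unlike the data here. Same-numbered libraries of a batch deviated together from their group means (r of 0.31 to 0.89 over 112 pairs, all above 0.1). That measure also holds the difference between batches. After removing batch, the 2 libraries of a batch and group mirror each other, so both replicate numbers give the same r. On that measure r was -0.28 to 0.37 in batch 1, with 12 of 28 pairs above 0.1. In batch 2 it was 0.28 to 0.83, with 28 of 28 above 0.1. Pairing by replicate number was therefore seen clearly in batch 2 only. A fit with batch and replicate number as a block was an alternative.

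The 40 genes and the further lists were chosen with earlier results of these data known. Values per library are given for ATF4 and DDIT3, for genes past the fold limit in any comparison, and in each role for the genes with the largest changes called with both ligands at 4 h, the largest rise and fall in FBS, and the largest difference between ligands. In each further list the largest called rise and fall at 4 h of EGF are named.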

Additional observations from a re-analysis of the deposited data

Results flagged for a closer look

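In CSS, SESN2 had 64.4 CPM in batch 2 replicate 1 while the other 3 libraries lay between 57.5 and 58.0 CPM, and by Dixon's test its gap was past the critical value. This was 1 of 136 groups of 4 libraries tested, where chance would give about 7 if the 4 libraries were alike. They came from 2 batches that differed in most of the genes, which makes a single outlying library harder to flag. The count flagged cannot be read against that chance count.

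Among the genes named by the rule, 1 was called in the direct edgeR comparison of the ligands, and CHAC1 and SESN2 were called with a log2 fold change beyond 1 in the direct comparison of the times. SLC3A2 was 0.21 higher on the log2 scale with EGF than with NRG-1 at 1 h. CHAC1 differed between 4 h and 1 h by -1.88 with EGF and -1.83 with NRG-1, and SESN2 by -1.37 with EGF and -1.07 with NRG-1.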

How the results depend on the processing

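No value named by the rule changed direction in any of the 20 settings. Most of these values were named because they were called, or the largest of their role, in these same data. A kept direction was likely from that choice alone and says little about the other genes. Over 40 named values, 717 results stayed on their side of the threshold, 74 (from 22 values) lost and 9 (from 2 values) gained a call. Members called fell without a batch term to 10 (FBS against CSS), 7 (EGF 1 h), 11 (EGF 4 h), 9 (NRG-1 4 h), 0 (EGF against NRG-1 at 1 h), 11 (EGF 4 h against 1 h) and 10 (NRG-1 4 h against 1 h). In batch 2 alone they fell to 4 (FBS), 3 (EGF 1 h), 2 (NRG-1 1 h), 7 (EGF 4 h), 3 (NRG-1 4 h), 0 (EGF against NRG-1 at 1 h), 7 and 6 (4 h against 1 h of EGF and NRG-1), and 17 and 10 (4 h of EGF and NRG-1 against FBS), with 2 libraries per group, and in batch 1 alone they were 3 and 2 for EGF against NRG-1 at 1 h and 4 h. Members called against CSS in batch 1 alone, also with 2 libraries per group, were 24 higher and 4 lower for FBS. At 1 h they were 13 and 0 (EGF) and 7 and 1 (NRG-1), and at 4 h 12 and 12 (EGF) and 7 and 15 (NRG-1). In limma on log2(TPM + 1) they were 15 (FBS), 5 (NRG-1 1 h) and 0 (EGF against NRG-1 at 1 h), the same with a pseudocount of 0.1, and 13, 4, 0 and 19 (EGF 4 h against FBS) with no TPM filter. With the replicate block 2 and 2 were called for EGF against NRG-1 at 1 h and 4 h, ATF4 with NRG-1 at 1 h was called, and no other count moved by over 1.5 times and no other named call changed. The cause of these moves was not tested. Leaving out each library in turn gave 19 to 24 members called for FBS against CSS, 9 to 11 and 7 to 9 for EGF and NRG-1 at 1 h, 16 to 20 and 14 to 19 at 4 h, 0 to 1 for EGF against NRG-1 at 1 h, 0 to 1 at 4 h (1 without EGF 4 h batch 2 replicate 1), 15 to 18 for 4 h against 1 h of EGF and of NRG-1, and 25 to 29 and 23 to 28 for 4 h of EGF and NRG-1 against FBS. Depth limits ALDH1L2 most, with as few as 48 counts in a library.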
